A study of Mus musculus with 6 samples.

Results

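AP-1 is a family of dimeric transcription factors, and the 10 genes described here encode its Fos, Jun, Batf and Atf3 subunits: Fos, Fosb, Fosl1 and Fosl2, Jun, Junb and Jund, Batf and Batf3, and Atf3. They were chosen by gene symbol, and all 10 were among the 14490 genes with normalized counts. The RNA came from splenic NK cells of C57BL/6 mice, purified by cell sorting, with 3 samples of Mettl3fl/fl mice (WT) and 3 of Ncr1Cre/+-Mettl3fl/fl mice (cKO). In both genotypes the Mettl3 alleles carry loxP sites, and in cKO mice Cre is expressed from Ncr1, the gene of the activating receptor NKp46, so that the deletion is meant for cells that have switched on this NK cell gene. The cKO mice are heterozygous for the Cre allele of Ncr1, and the WT genotype names no Cre. Effects of Cre or of the altered Ncr1 allele therefore cannot be told apart from those of Mettl3 loss. The study used mice of 6 to 10 weeks, and the labels name no treatment. The labels do not say whether the 3 samples of a genotype came from separate animals, so p-values measure the spread between these samples, which may be technical. Dividing the totals by the step between values in each sample gave 55965515 to 71464042 reads on the listed genes, which are estimates, since this recovery passed a formal check in 1 of the 6 samples. Batf3 was the member with by far the lowest counts. Normalized counts are read counts per gene divided by a factor that brings the samples to a common scale.

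METTL3 is the catalytic subunit of the enzyme that places N6-methyladenosine (m6A) on mRNA, a mark that many readers couple to mRNA decay. Fos proteins bind DNA as heterodimers with Jun proteins, whereas Jun proteins also pair with each other. BATF and BATF3 lack a transactivation domain and act with Jun proteins at sites shared with IRF4 and IRF8, and ATF3 is a stress-induced factor of the same leucine zipper class. In lymphocytes, Fos, Fosb, Jun, Junb and Atf3 are immediate early genes, transcribed within minutes of receptor signals, cytokines or stress through kinases of the MAPK pathways, and many of their mRNAs are short-lived because of AU-rich elements in the 3′ untranslated region (UTR).

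The start regions of Fos and Junb, which rose in cKO, Fosb, which fell, and Jun, the most abundant member whose change did not pass the test, are shown because these genes share signals and partners but did not move alike. Each line gives the 150 bases before the RefSeq start in GRCm38.p6, 5′ to 3′ on the strand of the gene, with capitals for matches to the motifs named below. Fos is on the plus strand (chr12:85473740-85473889), and Fosb (chr7:19310046-19310195), Junb (chr8:84978749-84978898) and Jun (chr4:95052223-95052372) are on the minus strand.
Fos: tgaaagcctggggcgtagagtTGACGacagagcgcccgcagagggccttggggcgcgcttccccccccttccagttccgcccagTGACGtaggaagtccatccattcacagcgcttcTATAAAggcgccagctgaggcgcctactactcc
Fosb: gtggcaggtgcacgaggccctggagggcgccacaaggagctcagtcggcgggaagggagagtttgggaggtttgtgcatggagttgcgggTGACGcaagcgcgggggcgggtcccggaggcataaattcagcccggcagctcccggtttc
Junb: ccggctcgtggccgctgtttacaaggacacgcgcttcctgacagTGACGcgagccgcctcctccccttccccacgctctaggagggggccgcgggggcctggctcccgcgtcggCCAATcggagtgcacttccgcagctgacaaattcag
Jun: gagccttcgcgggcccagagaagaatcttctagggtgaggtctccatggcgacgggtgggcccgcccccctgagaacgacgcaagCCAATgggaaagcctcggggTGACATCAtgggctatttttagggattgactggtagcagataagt
The core TGACG of the cAMP response element was found, on either strand within 250 bases before the start, in 5 of the 9 members matched to RefSeq (Fos, Fosb, Junb, Batf and Atf3), and in 17.8% of 32851 promoters. In Fos it begins 129 and again 66 bases before the start, in Fosb 60 and in Junb 106. Jun holds TGACATCA, the variant AP-1 site to which Jun and ATF2 are known to bind, 45 bases before its start, as did 2.93% of promoters. Atf3 holds TTACGTCA 10 bases before its start, which includes the reverse complement of TGACG and was found in 0.447% of promoters. The canonical AP-1 site TGACTCA and the palindrome TGACGTCA, which contains TGACG, were found in 0 of the 9 members and in 4.46% and 1.55% of promoters. A TATAAA box on the strand of the gene was present in Fos, 33 bases before the start, and in 7.59% of promoters, and CCAAT was present in Jun and Junb and in 33.9% of promoters. Fosl1 was not matched to RefSeq. These counts refer to RefSeq starts, which need not be the GENCODE starts of the next paragraph. The Jund window lies upstream of its GENCODE gene, ending at chr8:70697738, and the windows of Atf3, Batf3 and Fosl2 lie inside theirs.

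In the GENCODE annotation of GRCm38, Fos (chr12:85473890-85477273) and Batf (chr12:85686669-85709087) lie on the plus strand of the same chromosome, as do Batf3 (chr1:191097847-191108945, plus) and Atf3 (chr1:191170296-191218039, minus) on another, and Junb (chr8:84974484-84978718, minus) and Jund (chr8:70698949-70700616, plus) on chromosome 8. Fosb (chr7:19302696-19310051, minus), Fosl1 (chr19:5447547-5455946, plus), Fosl2 (chr5:32135801-32157842, plus) and Jun (chr4:95049034-95052222, minus) each lie alone. The reference transcripts of Jun, Junb and Jund have a single exon, and those of the Fos group have 4.

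Among the members, the 3′ UTR held different numbers of decay motifs. The pentamer ATTTA, the core of AU-rich elements, occurred 8 times in Fosl2, 4 times in Fos and Jun, 3 times in Atf3, 2 times in Junb, 1 time in Fosb, Fosl1 and Jund, and not in Batf and Batf3. At least 1 ATTTA was present in 65.3% of the 3′ UTRs of 11615 genes. Per kb of 3′ UTR this came to 4.91 in Fos, 4.12 in Junb, 3.24 in Jun and 0.466 in Fosb, beside a median of 1.19 over all genes. The longer TTATTTATT, which contains ATTTA, was present in Fos and Fosl2 and in 7.10% of genes. The following 30-base stretches of the reference transcripts, on the strand of the gene and with ATTTA in capitals, show the window of each 3′ UTR with the most ATTTA.
Fos: caATTTATTTAttaagatggattctcagat
Fosl2: acATTTAttttattATTTAttttaaatgtt
Jun: tcATTTAtaatcataggaaagATTTAgtaa
Junb: gtATTTAacagggaggggagaagggggctg
Fosb: ctATTTAtccctttcctggttcccaaaaag
They lie 650 bases after the stop codon in Fos, 3679 in Fosl2, 1031 in Jun and 1496 in Fosb, and nearest to the stop codon in Junb. GGACT, the most common form of the m6A consensus, occurred 8 times in the transcript of Fosl2, 7 times in Jun, 5 times in Fosb, 4 times in Fos, Jund and Batf, 3 times in Junb, 2 times in Atf3, and not in Fosl1 and Batf3, and was present in 91.2% of the transcripts of 11812 genes. Methylation itself was not analysed here, and these letters do not show whether a site was methylated.

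Mettl3, whose floxed exons Cre removes, served to check the labels. It had 1303, 1258 and 1192 normalized counts over WT samples 1 to 3 against 297, 299 and 405 over cKO samples 1 to 3, with no overlap between the genotypes. The log2 fold change came to -1.92, standard error 0.0986 (limma with Benjamini-Hochberg adjustment, adjusted p = 2.32e-14).

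Several members were among the most abundant transcripts of these cells. Together the 10 held between 2.54% and 2.75% of all normalized counts in a sample. Fosb ranked 2, Junb 6 and Jun 7 among the 14490 genes by mean normalized counts. Per kb of exon sequence, the scale on which genes can be compared with each other, Junb was highest with 196492 normalized counts per kb, followed by Jun with 113540, Fosb with 97421, Fos with 56524 and Atf3 with 25494. Fosl2 had 9942 and Jund 8563, Batf 1638 and Fosl1 616, and Batf3 was lowest with 85.9. This order depends on the length used: per kb of the reference transcript alone, Fosb had 160814 and stood above Jun, which kept 113540, and Fosl2 stood at 14722. The counts were made per gene, so the full-length FosB and the truncated deltaFosB transcripts were not separated.

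The genotypes differed in opposite directions within the family. Of the 10 members, 3 were higher in cKO (Fos, Batf3 and Junb) and 3 were lower (Fosl1, Fosb and Atf3) at a limma adjusted p under 0.05, and Fosl2, Jun, Batf and Jund did not pass. Over all genes, 36.6% passed, 17.8% higher and 18.8% lower. The groups did not overlap for 7 of the 10 members, the 6 called and Jun, beside 45.7% of all genes. Log2 fold changes had a median of -0.0012 over the members and of 0.0014 over all genes, and the medians of the absolute log2 fold changes were 0.23 and 0.17. Abundant genes were called more often, at 62.7% of the 1297 genes with a mean of at least 10000 normalized counts, and among the 7 members this abundant 4 were called, so the share of members called was not above that of other abundant genes. None of the 10 members had a log2 fold change above 1 or below -1 at an unadjusted p under 0.05, the limit that the study set, whereas 6 had an unadjusted limma p under 0.05.

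**Figure D1:**
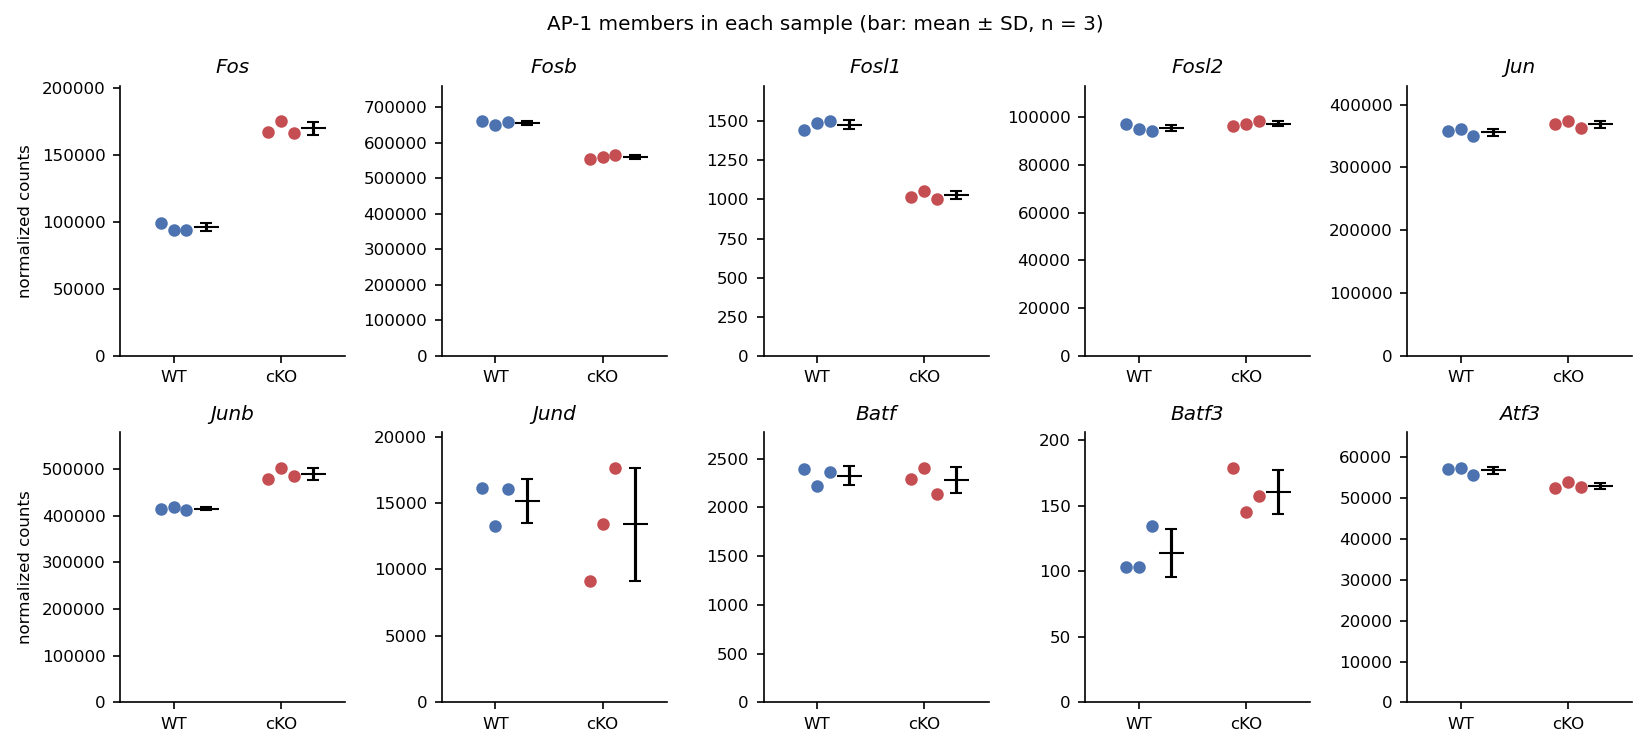
Normalized counts of the 10 AP-1 members in each sample (y axis, from 0, a scale of its own in each panel), with WT in blue and cKO in red and the mean ± SD of the 3 samples in black beside them. Fos lies between 94171 and 99528 in WT and between 166863 and 175321 in cKO, Fosb goes the other way, and the cKO samples of Jund spread from 9158 to 17658.

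Within the Fos group the largest member change was that of Fos, the founding member and an immediate early gene whose protein requires a Jun partner. It had 99528, 94171 and 94294 normalized counts over WT samples 1 to 3 against 167487, 175321 and 166863 over cKO samples 1 to 3. All cKO samples were above all WT samples, and the gap between the groups was far wider than the range of either. The mean rose 1.77-fold, from 95998 ± 3058 to 169891 ± 4713 (SD, n = 3), a log2 fold change of 0.82 with a standard error of 0.0314 (limma adjusted p = 8.01e-17).

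Fosb, the paralog of Fos and by counts the most abundant member, moved the other way. Its normalized counts were 661277, 650316 and 658754 over WT samples 1 to 3 against 554377, 559109 and 565359 over cKO samples 1 to 3. The groups did not overlap, and the samples of each genotype lay within a narrow band. The mean fell by 14.8% (log2 fold change -0.23, standard error 0.0311, limma adjusted p = 1.34e-06). Gm26802, a noncoding RNA on the same strand 1925 bases from Fosb, rose from 112 ± 29.9 to 411 ± 65.4 normalized counts (SD, n = 3, limma adjusted p = 1.26e-09), so the neighbours on that strand moved in opposite directions. Rtn2, of the same neighbourhood, also rose, from 240 ± 41.3 to 814 ± 100 (SD, n = 3, limma adjusted p = 4.08e-12).

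Fosl1, which encodes FRA-1, was a minor member of the group and fell the most. Its normalized counts were 1445, 1489 and 1500 over WT samples 1 to 3 against 1019, 1055 and 1005 over cKO samples 1 to 3. The highest cKO sample was well below the lowest WT sample. The log2 fold change was -0.53 with a standard error of 0.0594 (limma adjusted p = 7.93e-08). Of the 2033 exon bases of Fosl1, 1163 are shared with Ccdc85b on the opposite strand, and Ccdc85b rose from 1299 ± 39.3 to 1874 ± 37.5 normalized counts (SD, n = 3, log2 fold change 0.53, limma adjusted p = 1.54e-08). The strand setting of the counting is not given in the sources used here, and the library kit named in the labels does not mark strand, so how reads in the shared stretch were divided cannot be told, and the values of Fosl1 are uncertain to that extent.

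Fosl2, which encodes FRA-2, had WT normalized counts close to those of Fos, spread over longer transcripts, but did not follow it. It had 96866, 95083 and 94128 normalized counts over WT samples 1 to 3 against 96115, 97027 and 98223 over cKO samples 1 to 3, and the groups overlapped. The log2 fold change was 0.03, with a 95% confidence interval from -0.03 to 0.09 (limma adjusted p = 0.512).

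The make-up of the Fos group shifted accordingly. Per kb of exon sequence, Fos made up 26.6%, 25.9% and 25.7% of the group's counts over WT samples 1 to 3 against 41.8%, 42.7% and 41.2% over cKO samples 1 to 3. Fosb made up 66.6% to 67.6% in WT and 51.3% to 52.6% in cKO, and remained the largest part in all 6 samples. Per kb of the reference transcript the share of Fos was 19.4% in WT and 33.0% in cKO. The sum over the group depended on the scale: in normalized counts it had means of 849600 in WT and 827700 in cKO, but per kb of exon sequence it was 10.1% higher in cKO and also higher per kb of the reference transcript, with means of 244000 in cKO and 234600 in WT.

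**Figure D2:**
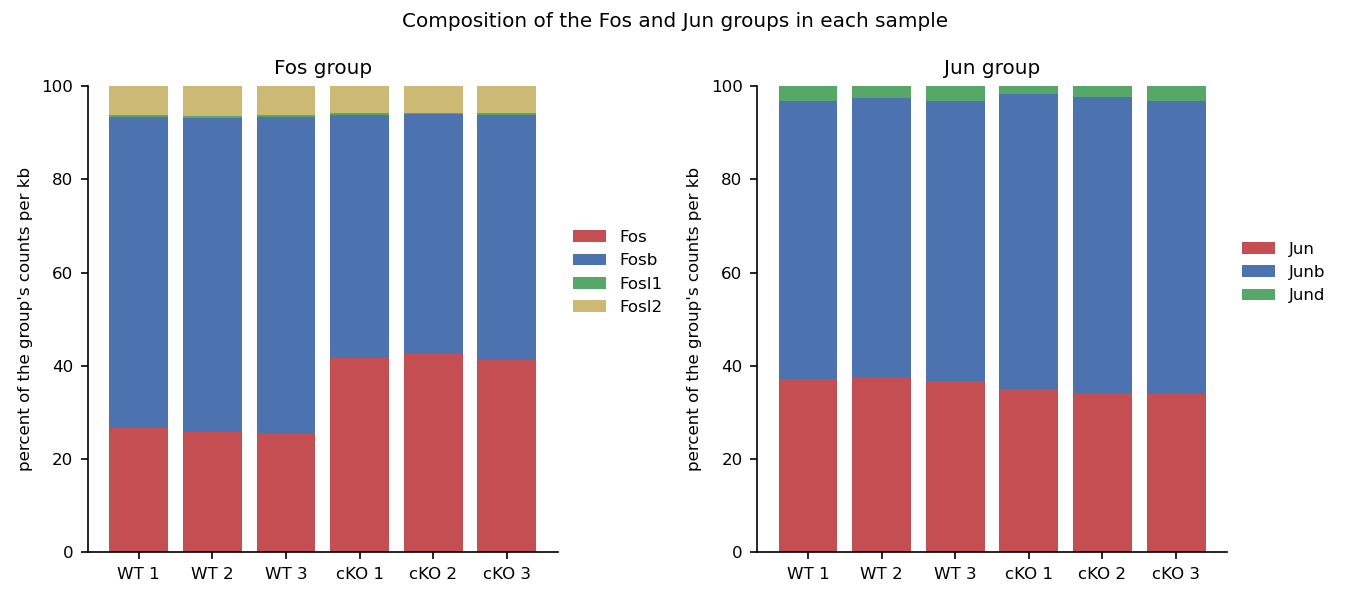
Stacked bars of the share of each member in the summed normalized counts per kb of exon sequence (y axis, percent) of the Fos group and the Jun group, 1 bar per sample. The red part, Fos, takes 25.7% to 26.6% in WT and 41.2% to 42.7% in cKO, while in the Jun group Junb (blue) takes 59.9% in WT and 63.2% in cKO on average.

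In the Jun group, Junb rose and neither Jun nor Jund passed the test. Junb, which often opposes c-Jun and is prominent in activated lymphocytes, had 415154, 418023 and 412030 normalized counts over WT samples 1 to 3 against 479622, 503124 and 484817 over cKO samples 1 to 3. The groups were clear of each other. The mean was 17.9% higher in cKO (log2 fold change 0.24, standard error 0.0314, limma adjusted p = 1.05e-06). Prdx2, which shares 173 exon bases with Junb on the opposite strand, had a mean of 2390.1 normalized counts over the 6 samples, against 452128 for Junb.

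Jun, which encodes c-Jun, the usual partner of Fos, had 357308, 360283 and 349973 normalized counts over WT samples 1 to 3 against 368217, 373443 and 363256 over cKO samples 1 to 3. All cKO samples lay above all WT samples, but only by a little. The log2 fold change was 0.05, with a 95% confidence interval from -0.01 to 0.11 (limma adjusted p = 0.219). Junos, an antisense RNA that shares 232 exon bases with Jun, had 25.0 to 43.7 normalized counts in WT and 65.4 to 78.3 in cKO.

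Jund, which encodes the Jun protein most associated with resting cells, varied between samples of the same genotype more than any other abundant member. It had 16144, 13252 and 16043 normalized counts over WT samples 1 to 3 against 9158, 13446 and 17658 over cKO samples 1 to 3, so that cKO held both the lowest and the highest sample. The log2 fold change was -0.22 with a standard error of 0.118 (limma adjusted p = 0.154). It turned to 0.03 without cKO sample 1 (adjusted p = 0.811), was -0.44 without cKO sample 3 (adjusted p = 7.37e-05) and -0.31 without WT sample 2 (adjusted p = 0.0459), so no direction can be given. The GC content of its transcript is 67.2%, above that of 99.8% of genes. The 200 genes nearest in GC content had median log2 deviations from their own mean of -0.03 to 0.04 in the 6 samples, and those of Jund itself ran from -0.61 to 0.34. The part of GC content in the spread of Jund was not tested. Jund also shares 877 of its 1668 exon bases with an antisense gene, Gm11175, which was not analysed here.

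Of the Batf group, Batf, a factor known for its part in effector lymphocytes, had 2395, 2218 and 2366 normalized counts over WT samples 1 to 3 against 2294, 2407 and 2143 over cKO samples 1 to 3. The groups overlapped, and the log2 fold change was -0.03 with a 95% confidence interval from -0.13 to 0.08 (limma adjusted p = 0.707). Batf3, best known from the development of cross-presenting dendritic cells, was at low counts, with 103, 104 and 135 over WT samples 1 to 3 against 179, 145 and 157 over cKO samples 1 to 3. The cKO samples were higher, yet the nearest samples of the genotypes differed by less than the range within either. The log2 fold change was 0.50 with a standard error of 0.180 (limma adjusted p = 0.0306), and leaving out WT sample 1, WT sample 2, cKO sample 1 or cKO sample 3 brought the adjusted p to 0.0967, 0.0897, 0.135 and 0.0621.

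Atf3, a factor induced by cell stress that can repress cytokine genes, had 57168, 57441 and 55758 normalized counts over WT samples 1 to 3 against 52567, 53881 and 52667 over cKO samples 1 to 3. All cKO samples were below all WT samples. The mean fell by 6.60% (log2 fold change -0.10, standard error 0.0288, limma adjusted p = 0.00809). Without cKO sample 1 the adjusted p was 0.0566.

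The scaling between samples mattered for the small changes. When the samples were scaled to equal totals instead of by size factors, the median over all genes moved to a log2 fold change of 0.05, and 24.1% of genes were called higher and 13.9% lower. Of the members, Jun (log2 fold change 0.10, limma adjusted p = 0.00313) and Fosl2 (0.08, adjusted p = 0.0221) then passed the test as higher, and Atf3 no longer passed (-0.05, adjusted p = 0.138), which gave 5 members higher and 2 lower. The directions of Fos, Junb and Batf3 upward and of Fosb and Fosl1 downward were the same under both scalings.

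**Figure D3:**
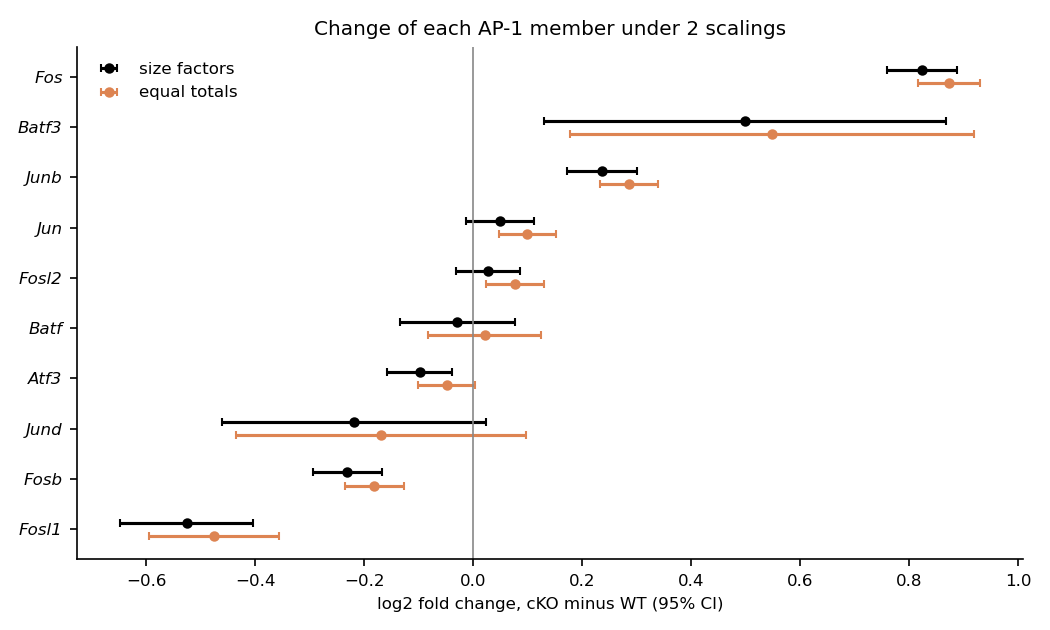
Log2 fold change of each member (x axis, cKO minus WT, on log2(normalized count + 1)) with its 95% confidence interval, by size factors in black and by equal totals in orange. The intervals of Fos, Batf3 and Junb lie above 0 and those of Fosb and Fosl1 below 0 under both scalings, while those of Jun, Fosl2 and Atf3 include 0 under only 1 of the 2.

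Ratios between members within a sample do not depend on that scaling, and 10 were compared. Fos over Fosb, in normalized counts, was 0.151, 0.145 and 0.143 over WT samples 1 to 3 against 0.302, 0.314 and 0.295 over cKO samples 1 to 3, a 2.08-fold shift in favour of Fos (difference of the log2 ratio 1.06). Fos also gained on Fosl2 by 1.74-fold, on Jun by 1.71-fold and on Batf by 1.81-fold. Jun over Junb was 0.849 to 0.862 in WT and 0.742 to 0.768 in cKO, and Atf3 over Jun was 0.159 to 0.160 in WT and 0.143 to 0.145 in cKO. Batf over Batf3 was 17.4 to 23.0 in WT and 12.8 to 16.4 in cKO. For 8 of the 10 ratios the groups did not overlap (two-sided exact permutation p = 0.1, which is the lowest value possible with 3 against 3, and 0.125 after Benjamini-Hochberg adjustment over the 10 ratios). Among single genes, 45.7% did not overlap, but no such share was computed over other gene pairs. The ratios share members, several of them Fos, so they are not separate shifts. The ratios of Jun and of Junb to Jund overlapped between the genotypes (exact permutation p = 0.6 and 0.2). The summed Fos group over the summed Jun group, in normalized counts, was 1.06 to 1.09 in WT and 0.935 to 0.960 in cKO. That ratio depends on how the members are weighed by length. Per kb of exon sequence both sums were higher in cKO, the Fos group by 10.1% and the Jun group by 11.7%. Per kb of the reference transcript the Fos group had means of 234600 in WT and 244000 in cKO, and the Jun group was 12.5% higher in cKO.

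**Figure D4:**
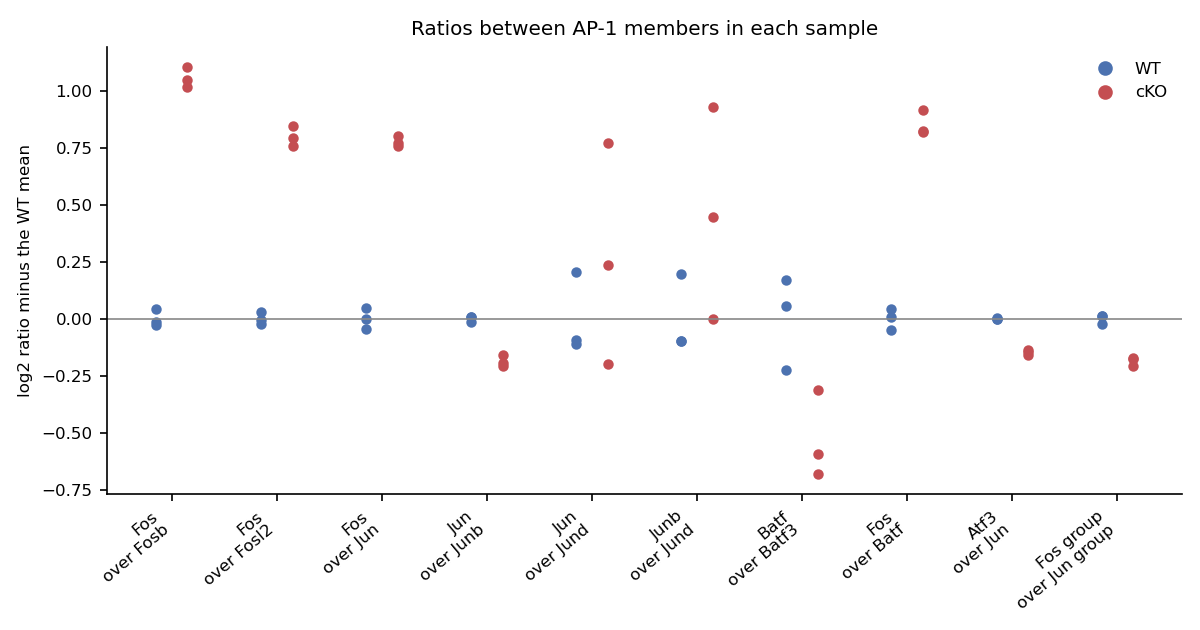
Log2 ratio of 2 members in each sample minus the WT mean of that ratio (y axis), for the 10 ratios on the x axis, with WT in blue and cKO in red. The cKO samples lie about 1 log2 unit above WT for Fos over Fosb, below WT for Jun over Junb and Atf3 over Jun, and are spread out for both ratios to Jund.

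The other immediate early genes moved in both directions as well. Of 31 listed, 11 were higher and 12 lower in cKO, with a median log2 fold change of 0.01. The share called was 74.2%, beside 36.6% of all genes and 62.7% of genes with a mean of at least 10000 normalized counts. Dusp1, a phosphatase that switches off MAPK signals, rose from 181120 ± 4445 to 260907 ± 5455 normalized counts (SD, n = 3, log2 fold change 0.53, limma adjusted p = 3.06e-13), and Arc, a gene best known from neurons, from 737 ± 50.7 to 1317 ± 84.7 (log2 fold change 0.84, adjusted p = 5.10e-10). The orphan nuclear receptor gene Nr4a3 fell from 43209 ± 907 to 32510 ± 623 (log2 fold change -0.41, limma adjusted p = 2.28e-11) and the salt-inducible kinase gene Sik1 from 47764 ± 241 to 37623 ± 74.4 (log2 fold change -0.34, adjusted p = 2.32e-10). Fos thus stood near the upper end of this list, next to Arc, and Fosb among the genes that fell. Immediate early and heat shock genes are also known to respond to tissue dissociation and sorting. Of 12 heat shock genes, 6 were higher and 2 lower, with the inducible chaperone genes Hsph1 (log2 fold change 0.92, limma adjusted p = 1.88e-15), Hspa1a (0.87, adjusted p = 5.83e-09) and Hspa1b (0.80, adjusted p = 7.47e-10) up and Dnajb4 (-0.33, adjusted p = 1.48e-08) and Dnaja1 (-0.13, adjusted p = 0.000894) down. These inducible genes rose 1.90-fold, 1.83-fold and 1.74-fold. Of the 12 heat shock genes 66.7% were called, beside the 36.6% of all genes. The summed level of the 12 overlapped between the genotypes, at 378200 to 398700 normalized counts in WT and 384200 to 406200 in cKO, but most of it came from Hspa8 and Hsp90ab1, which did not pass the test. The part of handling in the changes of the members was not tested.

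**Figure D5:**
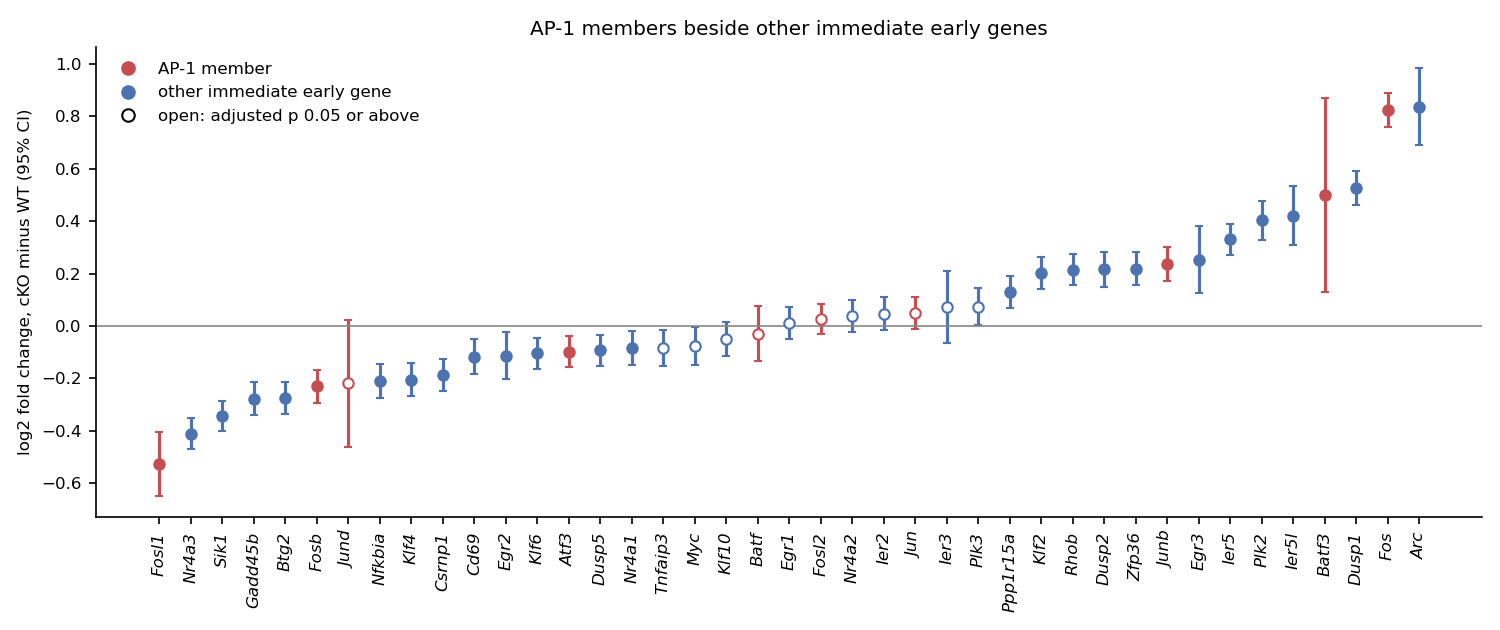
Log2 fold change with 95% confidence interval (y axis, cKO minus WT) of the 10 AP-1 members in red and 31 other immediate early genes in blue, in order of the fold change (x axis). Open symbols have an adjusted p of 0.05 or above, Fosl1 is at the lower end, and Fos is at the upper end beside Arc.

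Upstream of the family, 10 of 22 MAPK pathway kinases passed the test, 3 higher and 7 lower, with a median log2 fold change of -0.01. This was 45.5% of them, beside 36.6% of all genes. The JNK1 gene Mapk8 (-0.23, limma adjusted p = 0.00104) and the ERK1 gene Mapk3 (-0.21, adjusted p = 0.000123) were lowest, and Map3k5 (0.20, adjusted p = 0.000726) and Rps6ka1 (0.14, adjusted p = 0.00241), the genes of ASK1 and RSK1, were highest. Of 12 SRF, TCF, MEF2 and CRTC genes, whose products act at the Fos promoter and at other immediate early promoters, Elk4 (-0.30, limma adjusted p = 9.15e-08), Mef2c (-0.22, adjusted p = 0.000937) and Mef2d fell and the SRF coactivator gene Mkl1 rose (0.31, adjusted p = 1.28e-07), with 8 not passing. By size factors 33.3% of these 12 passed, beside 36.6% of all genes. With equal totals 7 of these 12 passed, where 24.1% of all genes were called higher and 13.9% lower.

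Of the 33 other leucine zipper factors listed, 9 were higher and 10 lower, in all 57.6%, beside 36.6% of all genes. Crem (-0.52, limma adjusted p = 3.36e-11) and the stress gene Ddit3 (-0.31, adjusted p = 2.42e-07) fell the most, and Nfe2 (0.64, adjusted p = 0.000966) and Hlf (0.69, adjusted p = 0.0258), both at low counts, rose the most. Of the 8 partners at composite sites, Irf8 fell (-0.14, limma adjusted p = 0.000489) and so did Runx1 (-0.10, adjusted p = 0.0411), whereas Nfatc2 (0.33, adjusted p = 2.47e-07) and Ets1 (0.16, adjusted p = 0.000108) rose. The share called among the 8 was 50.0%, against the same 36.6%. Irf4, the other IRF partner of BATF, was at 817 ± 75.2 in WT and 895 ± 44.3 in cKO (SD, n = 3, limma adjusted p = 0.184), and Nfatc1, Nfatc3 and Runx3 had log2 fold changes of 0.07, 0.01 and 0.05 that did not pass.

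Genes that AP-1 is known to act on in lymphocytes also went both ways, with 5 of 15 higher and 4 lower. Their median log2 fold change was 0.11. In all, 9 of the 15 passed the test, beside 36.6% of all genes. Among genes with a mean of at least 10000 normalized counts, 62.7% passed. Tnf rose from 2590 ± 110 to 4471 ± 189 normalized counts (SD, n = 3, log2 fold change 0.79, limma adjusted p = 2.00e-13), and Plau, the urokinase gene, was higher by 0.31 on the log2 scale (adjusted p = 0.00539). Il2ra, the gene of the IL-2 receptor alpha chain, fell from 375 ± 76.6 to 223 ± 17.9 (SD, n = 3, log2 fold change -0.73, limma adjusted p = 0.000151), and Fasl from 9853 ± 181 to 7586 ± 215 (log2 fold change -0.38, adjusted p = 1.95e-09).

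Genes that act on the products of the family were examined too. Of the 5 genes for ubiquitin ligase components that target c-Jun or JunB, Fbxw7 (0.16, limma adjusted p = 0.0011) and Det1 (0.29, adjusted p = 0.00583) rose, and Itch, Nedd4 and Rfwd2 (COP1) had log2 fold changes of 0.00, -0.04 and -0.02 that did not pass. Of 11 genes of AU-rich element binding proteins and m6A readers, 4 rose and 3 fell. Called were thus 2 of the 5 ligase genes and 7 of these 11, beside 36.6% of all genes. Among genes with a mean of at least 10000 normalized counts, Zfp36 being one, 62.7% were called. Zfp36, whose product binds AU-rich elements such as those of Fos and promotes decay, rose from 284288 ± 5998 to 330845 ± 6204 normalized counts (SD, n = 3, log2 fold change 0.22, limma adjusted p = 2.69e-06), and Khsrp rose by 0.18 (adjusted p = 0.000125). Lower in cKO were the m6A reader gene Ythdf3 (-0.21, limma adjusted p = 1.57e-05) and Elavl1, which encodes the stabilizing protein HuR (-0.11, adjusted p = 0.0457).

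By their profile over the 6 samples, the genes most like Fos among 11045 candidates with a mean of at least 100 normalized counts were Tnf, Fam78a and Txndc5, with root mean square differences of the centred log2 values of 0.0366, 0.0431 and 0.0443. Those most like Fosl1 were Ifi27, Rnf19b and Rhoc, with 0.0200, 0.0208 and 0.0258. Likeness over 6 samples in 2 groups rests mainly on the size of the change between genotypes.

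The cell type of the samples was checked with marker lists. The 10 NK cell markers summed to 672400 to 703000 normalized counts in WT and 609800 to 644400 in cKO, with 6 lower and 1 higher in cKO. Among the lower ones is Ncr1, whose locus carries Cre in cKO (log2 fold change -0.40, limma adjusted p = 3.56e-11). The 6 B cell markers summed to 657 to 743 in WT and 1018 to 1068 in cKO, with 4 higher. Called were 70.0% of the NK cell markers and 66.7% of the B cell markers, beside 36.6% of all genes. Among genes with a mean of at least 10000 normalized counts, the share called was 62.7%. The 7 T cell markers listed summed to 2095 to 2354 in WT and 1661 to 1909 in cKO, the 5 myeloid markers to 7027 to 7623 and 6974 to 7786, and the 5 erythroid markers to 811 to 870 and 684 to 832. None of these markers was at 0. In bulk samples, fewer cells of a type and less RNA per cell cannot be told apart. The mix of NK cells may differ too, since the paper reports a lower share of the last maturation stage in cKO spleen. The part of other cells or of NK cell maturation in the changes of the AP-1 members was not tested.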

How the data were processed

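mRNA-seq of splenic NK cells of 3 WT and 3 cKO samples was analysed, with genotypes and replicate numbers from the sample labels. Reads were paired-end, and the authors used Hisat2 for alignment to GRCm38, featureCounts for counts per gene, and DESeq2 for the size factors that divide them. The deposited sample columns hold this signal, called normalized counts here. The columns of the authors' own comparison (mean, log2 fold change, its error, statistic and p-values) were not used. Low values were whole multiples of a step per sample within a tolerance of 0.01, from which the reads were estimated.

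Values were taken as log2(value + 1), so that fold changes of low genes are understated, and the filter, 3 samples with a value of 1 or more, left every gene in. limma 3.58.1 in R 4.3.3 compared the genotypes (variance trend, two-sided tests) with Benjamini-Hochberg adjustment over all 14490 genes, after the steps were tested on simulated data. Ratios between members were tested by exact permutation of the genotype labels, with 20 possible assignments. Confidence intervals are at the 95% level. Of the names, 97.3% matched GENCODE vM21 (GRCm38), which gave exons, transcripts and UTRs, and promoters came from RefSeq (GRCm38.p6).

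The members and gene lists were chosen with earlier results of these data known. Named genes are all members, Mettl3, in each list the 2 highest and 2 lowest log2 fold changes with an adjusted p under 0.05 and a mean of at least 100 normalized counts, every gene of a list of up to 8, and the 3 genes most like Fos and Fosl1. Mef2d, Hspa1b, Hspa8, Hsp90ab1, Ncr1 and the genes that overlap or neighbour a member were named in addition, after their values were seen. Alternatives were equal totals, a pseudocount of 0.1, a filter of 1 CPM or more in 3 samples, no filter, the replicate number as a block, the study's fold change limit and each sample left out.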

Additional observations from a re-analysis of the deposited data

How the results depend on the processing

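Fos, Fosb, Fosl1, Junb and Mettl3 kept their direction and their side of an adjusted p of 0.05 under all 11 alternatives run for them, with log2 fold changes of 0.80 to 0.87, -0.24 to -0.18, -0.55 to -0.48, 0.22 to 0.29 and -2.06 to -1.84. With the study's limit of a log2 fold change above 1 or below -1 at an unadjusted p under 0.05, 0 members and 254 of all genes were called by limma. With equal totals, 5 members were called higher, Batf turned to 0.0207, and 63.4% of all calls were higher in cKO, against 48.5% by size factors. Leaving out each sample in turn gave 4 to 6 members called, 2 to 3 of them higher and 2 to 4 lower, 4417 to 4922 genes called in all, and 73 to 80 called genes of the pathway lists. It gave log2 fold changes of -0.443 to 0.0307 for Jund, turning upward without cKO sample 1, and of -0.0685 to 0.0154 for Batf, turning upward without cKO sample 3, both with an adjusted p above 0.05 where they turned. The difference of the log2 ratio of Fos over Fosb stayed between 1.03 and 1.08. The cause of these shifts was not tested.

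WT and cKO samples share replicate numbers, but the deviations of same-numbered samples from their genotype's mean correlated across genes by only -0.02, 0.12 and 0.07 for numbers 1, 2 and 3, so the numbers were not taken to pair the samples. With the replicate block, 7 members and 5543 genes were called, Jund being the member added as lower (adjusted p = 0.0457), and no other member's call changed. The count models planned for recovered reads, edgeR and DESeq2, were not run, because the recovery of whole reads from the normalized values passed its check in 1 of the 6 samples. With 3 samples per genotype, the spread of Batf3, at about 137 normalized counts, and of Jund is poorly known, and effects on proteins or on dimers were not measured here.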
